A study of Mus musculus with 24 samples.

Results

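Of 24532 genes measured, 10 genes of serine synthesis and of the folate one-carbon cycle were followed in bulk RNA-seq libraries from liver, inguinal white adipose tissue (iWAT), gastrocnemius muscle (GM) and hypothalamus. They were chosen by name, as enzymes of these routes: Phgdh, Psat1, Psph, Shmt1, Shmt2, Mthfd1, Mthfd1l, Mthfd2, Mthfd2l and Aldh1l2, and all 10 were matched. The study compared Ctrl mice, which carry 2 floxed alleles of Crif1 (Crif1flox/flox), with LKO mice, which carry the same alleles and Cre under the albumin promoter (Alb-Cre;Crif1flox/flox). All mice were of the C57BL/6 strain, 8 weeks old and fed chow, with 3 libraries per genotype and tissue and 24 in all. The albumin promoter drives Cre in hepatocytes, so the other cells of the liver and the other 3 tissues keep the floxed gene. CRIF1, whose gene is listed as Gadd45gip1, is a factor of the mitochondrial ribosome, and its loss impairs the making of the respiratory chain.

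PHGDH, PSAT1 and PSPH turn the glycolytic intermediate 3-phosphoglycerate into serine in the cytosol. Serine hydroxymethyltransferase then moves one carbon of serine onto tetrahydrofolate and leaves glycine, through SHMT1 in the cytosol and SHMT2 in mitochondria. In the cytosol MTHFD1 interconverts the folate-bound carbon between its oxidation states. In mitochondria the same steps are shared between MTHFD2 or MTHFD2L, which oxidise it, and MTHFD1L, which releases it as formate. ALDH1L2, also in mitochondria, oxidises it to carbon dioxide. The mitochondrial enzymes and the serine enzymes are known as targets of the transcription factor ATF4, which is induced when mitochondria are under stress, and adult liver is known for high levels of the cytosolic folate enzymes.

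The values are FPKM, fragments scaled to transcript length and to the fragments of the library, as the authors deposited them. Gadd45gip1 was 14.6, 12.5 and 13.6 FPKM in Ctrl livers. In LKO livers it was 5.40, 2.002 and 2.51 FPKM, and LKO 1 kept the highest level of the 3. In iWAT, GM and hypothalamus the Gadd45gip1 values of the genotypes overlapped. Depth was between 4.45 and 8.09 gigabases per library. The labelled tissues held their own markers, with summed FPKM of 42510 to 68370 for 6 hepatocyte genes in liver, 20900 to 27050 for 5 adipocyte genes in iWAT, 75940 to 84410 for 5 muscle genes in GM and 1581 to 1949 for 5 neuronal genes in hypothalamus. No source says if one mouse gave all 4 tissues, and nothing beyond the replicate labels says that libraries are separate animals, so that p-values measure the spread between these libraries.

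In mm10 the serine synthesis genes lie on 3 chromosomes: Phgdh at chr3:98313171-98339969, Psat1 at chr19:15905123-15925059 and Psph at chr5:129765558-129787253, all on the minus strand. The cytosolic folate genes are Shmt1 at chr11:60788897-60811265 on the minus strand and Mthfd1 at chr12:76255232-76319820 on the plus strand. Of the mitochondrial genes, Shmt2 is at chr10:127517123-127522444 (minus strand), Mthfd1l at chr10:3973075-4167081 (plus), Mthfd2 at chr6:83305704-83317604 (minus), Mthfd2l at chr5:90931196-91021370 (plus) and Aldh1l2 at chr10:83487447-83534140 (minus). Shmt2 overlaps Ndufa4l2 on the other strand by 34 bases, and the other 9 genes overlap no other gene of the annotation. The library kit does not mark strand.

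The promoter windows of 4 genes that were higher in the LKO livers and of 2 that were lower are shown so that the groups can be set side by side, the 4 with the largest rise among the enzymes and both that were called lower. Each runs from 250 bases before the annotated start to 50 bases after it, on the gene's own strand, from RefSeq (GRCm38.p6, the assembly of mm10). Capitals mark CCAAT, or ATTGG where the match is on the other strand.
Phgdh (chr3:98339920-98340219, minus strand): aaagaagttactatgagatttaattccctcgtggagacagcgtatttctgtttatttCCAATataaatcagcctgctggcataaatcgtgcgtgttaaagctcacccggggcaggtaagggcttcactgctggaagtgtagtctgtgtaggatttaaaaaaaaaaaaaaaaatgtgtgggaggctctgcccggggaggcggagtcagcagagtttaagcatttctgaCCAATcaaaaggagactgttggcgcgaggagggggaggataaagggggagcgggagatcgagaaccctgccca
Psat1 (chr19:15925010-15925309, minus strand): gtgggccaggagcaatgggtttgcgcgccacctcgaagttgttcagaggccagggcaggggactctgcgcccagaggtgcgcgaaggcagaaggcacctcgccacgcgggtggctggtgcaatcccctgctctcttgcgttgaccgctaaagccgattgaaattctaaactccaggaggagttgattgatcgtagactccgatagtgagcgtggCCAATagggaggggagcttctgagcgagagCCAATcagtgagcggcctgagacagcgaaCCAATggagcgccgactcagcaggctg
Mthfd2 (chr6:83317555-83317854, minus strand): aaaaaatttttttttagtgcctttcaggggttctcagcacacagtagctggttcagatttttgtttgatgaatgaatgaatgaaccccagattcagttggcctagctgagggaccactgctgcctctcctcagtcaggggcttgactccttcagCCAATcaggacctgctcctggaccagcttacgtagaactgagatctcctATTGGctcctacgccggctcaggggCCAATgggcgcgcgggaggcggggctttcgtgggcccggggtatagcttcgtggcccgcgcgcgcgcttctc
Mthfd1l (chr10:3972825-3973124, plus strand): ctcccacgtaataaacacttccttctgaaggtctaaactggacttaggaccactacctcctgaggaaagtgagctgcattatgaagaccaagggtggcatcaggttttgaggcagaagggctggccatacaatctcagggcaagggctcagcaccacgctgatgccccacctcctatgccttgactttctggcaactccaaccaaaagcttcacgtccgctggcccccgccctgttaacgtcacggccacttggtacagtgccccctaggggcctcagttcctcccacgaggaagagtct
Shmt1 (chr11:60811216-60811515, minus strand): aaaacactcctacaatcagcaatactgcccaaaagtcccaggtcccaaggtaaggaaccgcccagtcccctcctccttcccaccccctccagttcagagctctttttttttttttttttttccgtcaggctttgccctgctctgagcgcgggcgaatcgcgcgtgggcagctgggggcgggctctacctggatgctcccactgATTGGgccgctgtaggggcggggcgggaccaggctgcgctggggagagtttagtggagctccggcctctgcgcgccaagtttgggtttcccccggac
Mthfd1 (chr12:76254982-76255281, plus strand): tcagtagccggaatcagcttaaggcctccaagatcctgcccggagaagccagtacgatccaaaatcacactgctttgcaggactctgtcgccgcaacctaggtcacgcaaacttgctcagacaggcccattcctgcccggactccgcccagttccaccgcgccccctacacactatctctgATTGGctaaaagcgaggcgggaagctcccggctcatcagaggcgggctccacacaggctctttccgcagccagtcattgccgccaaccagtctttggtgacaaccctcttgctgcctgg

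A window was listed for 9 of the 10 genes, with a second start for Psat1, and Aldh1l2 had no entry. The CCAAT box, a promoter motif bound by NF-Y, was looked for after the letters had been seen. It occurred in the windows of 6 of the 9 genes, against 41.1% of 27025 genes with a window. The first Psat1 window and the Mthfd2 window held 3 each, a number reached or passed by 3.37% of 32851 windows, and those of Phgdh and Psph held 2 each, a number reached or passed by 11.7% of windows. The matches closest to the start began 6 bases before it in Psat1, 22 in Mthfd2 and 23 in Phgdh. Shmt1 and Mthfd1 held 1 each. The windows of Mthfd1l, Mthfd2l and Shmt2 held none. The CARE motif TGATGNAA, read on both strands, to which ATF4 binds with a C/EBP partner, was in 3.97% of all windows and in none of the 10 windows of these genes, and the E-box CACGTG, a palindrome bound by MYC among others, was in 7.15% of all windows and likewise in none of the 10. That says only that these letters are not in these windows.

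In the LKO livers the serine synthesis genes were higher and the cytosolic folate genes lower, while the mitochondrial folate genes were higher except for Shmt2. In the plot of the 10 enzymes in every liver library, 9 of the 10 had groups that did not overlap, 7 with LKO above Ctrl and 2 below. Among all 17883 genes above 0 in liver, 50.2% had groups that did not overlap, 44% with LKO above and 6.21% with LKO below.

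**Figure D1:**
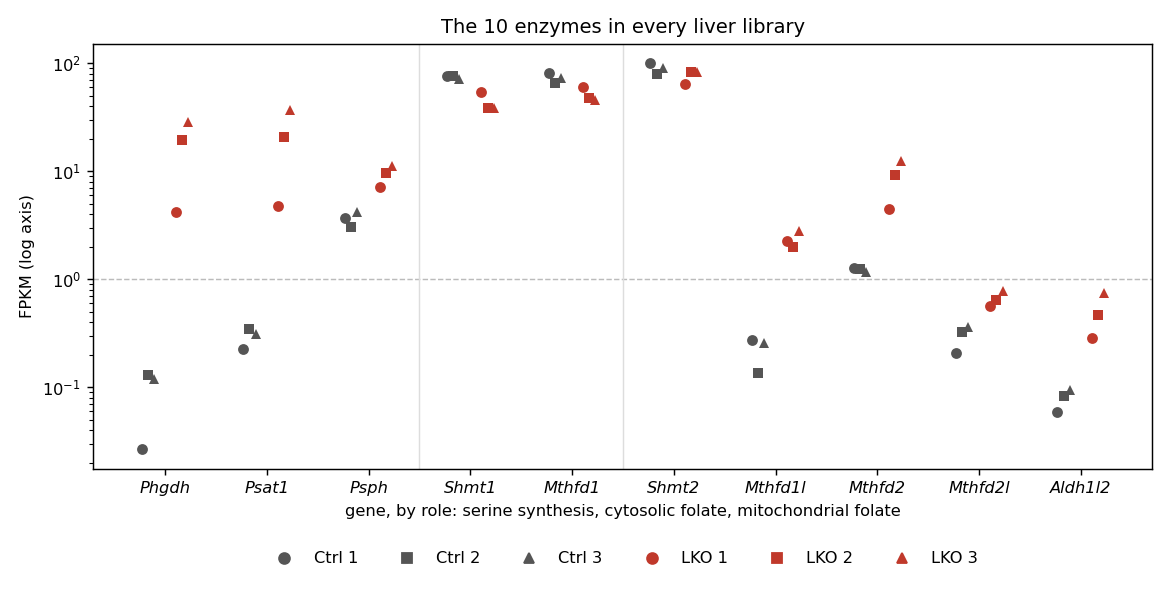
FPKM (log axis) of the 10 genes in the 6 liver libraries, grey for Ctrl and red for LKO, with the symbol giving the replicate; vertical lines part serine synthesis, cytosolic folate and mitochondrial folate genes, and the dashed line is 1 FPKM. The groups overlap for Shmt2, and LKO 1 is the lowest LKO library for Phgdh, at 4.16 FPKM, and Psat1, at 4.78 FPKM.

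Phgdh, which encodes the first and committing enzyme of the serine route, was listed at 0.0267, 0.131 and 0.12 FPKM in the Ctrl livers. In LKO livers it reached 4.16, 19.2 and 28.7 FPKM. Every LKO library was above every Ctrl library, with LKO 1 well under the other LKO livers. The mean was 188-fold higher (17.4 ± 12.4 against 0.0924 ± 0.0571 FPKM, SD, n = 3 each). The mean coverage per base behind the Ctrl values was only 0.216 to 0.727, so that the fold rests on few reads. On the scale of log2(FPKM + 1), which keeps such low values from inflating a fold, Phgdh rose by 3.74 (SE 0.58, limma, Benjamini-Hochberg adjusted p = 0.0042 over 10956 genes), the place 18 from the top of all genes tested.

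Psat1, the aminotransferase of the next step, followed the same course. Its Ctrl values were 0.225, 0.347 and 0.309 FPKM, and its LKO values 4.78, 20.7 and 37.2 FPKM, again with LKO 1 lowest and no overlap. It rose by 3.70 on the log2 scale (SE 0.61, limma adjusted p = 0.0050), at place 21. Psph, the phosphatase that ends the route, was already expressed in Ctrl, at 3.68, 3.06 and 4.15 FPKM, and stood at 7.16, 9.66 and 11.1 FPKM in LKO. It was 2.56-fold higher in the mean and rose by 1.14 (SE 0.17, limma adjusted p = 0.0041).

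The cytosolic folate genes went the other way from a high level. Shmt1 was at 76.4, 75.3 and 71.7 FPKM in Ctrl and at 54.3, 38.1 and 38.3 FPKM in LKO. No LKO library reached the Ctrl range, and LKO 1 came nearest to it. Shmt1 fell by 0.78 on the log2 scale (SE 0.15, limma adjusted p = 0.0088). Mthfd1, the cytosolic trifunctional enzyme, was 80.7, 65.9 and 72.6 FPKM in Ctrl and 60.1, 48.0 and 45.7 FPKM in LKO. Its groups did not overlap either, and it fell by 0.51 (SE 0.14, limma adjusted p = 0.025). That call was lost when any single library other than LKO 1 was left out, with an adjusted p of up to 0.0924 without LKO 2.

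Among the mitochondrial genes, Shmt2 stood apart. Its Ctrl values were 99.5, 79.5 and 89.2 FPKM and its LKO values 64.7, 82.7 and 82.1 FPKM. The groups overlapped, with LKO 1 below all others, and the difference of −0.22 on the log2 scale had a 95% interval from −0.55 to 0.10 (limma adjusted p = 0.21). Mthfd2, the dehydrogenase and cyclohydrolase of many growing cells, rose from 1.28, 1.24 and 1.17 FPKM to 4.49, 9.13 and 12.6 FPKM. The Ctrl livers lay within a narrow band, and each LKO liver was well above it. The rise was 2.03 on the log2 scale (SE 0.30, limma adjusted p = 0.0037). Mthfd1l, the mitochondrial formate-releasing enzyme, was 0.276, 0.136 and 0.259 FPKM in Ctrl and 2.25, 1.97 and 2.81 FPKM in LKO, and rose by 1.44 (SE 0.12, limma adjusted p = 7.3e-04). It was the one of the 7 higher genes for which LKO 2, and not LKO 1, was the lowest LKO liver.

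Mthfd2l and Aldh1l2 were under 1 FPKM in all 6 livers and were not tested in the comparison above. Mthfd2l was 0.206, 0.323 and 0.362 FPKM in Ctrl and 0.561, 0.647 and 0.784 FPKM in LKO, and Aldh1l2 was 0.059, 0.0828 and 0.0955 FPKM in Ctrl and 0.286, 0.471 and 0.74 FPKM in LKO. In both genes all 3 LKO livers were above all 3 Ctrl livers. In a limma fit without the filter they differed by 0.36 (adjusted p = 0.019) and 0.46 (adjusted p = 0.026) on the log2 scale. Mean coverage per base in the Ctrl livers was 1.67 to 1.96 for Mthfd2l and 0.46 to 0.517 for Aldh1l2.

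Of the 10 genes, 8 passed the filter of at least 1 FPKM in 3 of 6 livers. Of the 8, 5 were called higher and 2 lower at an adjusted p under 0.05, in a liver in which 43.8% of 10956 genes were called, 38.3% higher and 5.49% lower. Phgdh, Psat1 and Mthfd1l passed the filter through the LKO libraries alone, so that these 3 could not have passed without a difference. The fit without a filter took in all 10 genes and called 7 higher and 2 lower, where it called 28.8% of 17883 genes, 25.4% higher and 3.41% lower. Over the 10 genes the median difference was 0.80 on the log2 scale in that fit, against 0.19 over all genes. The deposited values carry an upward shift in the LKO livers, with a median of 0.33 on the log2 scale over the tested genes, which rescaling by median ratios turned into −0.04. Of all tested genes, 3629 (33.1%) were called after rescaling, 1663 (15.2%) higher and 1966 (17.9%) lower, against 4193 higher and 601 lower before. After rescaling, Phgdh still rose by 3.50, Psat1 by 3.43, Psph by 0.77, Mthfd1l by 1.25 and Mthfd2 by 1.70 (limma adjusted p from 0.0012 to 0.0066), and Shmt1 and Mthfd1 fell by 1.21 and 0.94 (adjusted p = 0.010 and 0.016). Shmt2 then fell by 0.66 (adjusted p = 0.0071), so that whether it was called depended on the scaling. Mthfd2l, at 0.22, was then no longer called (adjusted p = 0.051).

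LKO 1 was the LKO liver nearest to Ctrl for 8 of the 9 genes whose groups did not overlap. The same library was nearest for 75.4% of the 6697 tested genes whose groups did not overlap. It also had the highest Gadd45gip1 of the LKO livers and, for Ddit3 (CHOP, a stress-induced partner of C/EBP factors), the lowest value, at 18.9 FPKM against 86.2 in LKO 2 and 217 in LKO 3. Between LKO 2 and LKO 3 the order differed. LKO 2 had less Gadd45gip1 than LKO 3 (2.002 against 2.51 FPKM), but also less Phgdh (19.2 against 28.7 FPKM) and less Ddit3. What set LKO 1 apart was not tested. Without LKO 1, the rise was 4.49 for Phgdh and 4.48 for Psat1.

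The LKO livers also differed in cell type markers. In bulk tissue a change in the number of cells of a type and a change in RNA per cell cannot be told apart. All 6 markers of proliferating cells were higher in every LKO liver, with sums of 1.68 to 3.42 FPKM in Ctrl and of 99.3, 39.2 and 38.9 FPKM in LKO 1, 2 and 3. All 6 monocyte and macrophage markers (51.3 to 57.5 FPKM in Ctrl, then 148, 177 and 245 in LKO 1, 2 and 3) and all 5 Kupffer cell markers (93.4 to 97.5, then 205, 237 and 326) were likewise higher in every LKO liver. So were all 5 cholangiocyte markers (30.7 to 31.8, then 41.6, 88.9 and 76.35) and all 5 stellate cell and fibroblast markers (65.9 to 73.8, then 178, 183 and 198). Of 5 neutrophil markers 3 were (1.00 to 1.58, then 9.92, 8.07 and 7.67). The sums of monocyte and macrophage, Kupffer cell and stellate cell markers rose from LKO 1 to LKO 3, as Phgdh and Psat1 did. Those of proliferating cells and neutrophils were highest in LKO 1, and that of cholangiocytes in LKO 2. None of these markers was at 0 in all LKO livers. The study's flow cytometry of LKO livers pointed to fewer resident Kupffer cells and more infiltrated monocytes, so that marker sums are not counts of cells. Summed over 6 hepatocyte markers the groups overlapped, at 57470 to 60170 FPKM in Ctrl and 42510 to 68370 FPKM in LKO. However, 2 of the 6, Apoa1 and Serpina1c, were lower in every LKO liver than in any Ctrl liver. Apoa1 was 7145, 7137 and 7105 FPKM in Ctrl and 6164, 4573 and 2942 FPKM in LKO, and Serpina1c went from 4983, 4807 and 4861 FPKM to 3365, 2165 and 1573 FPKM. The part of these cell types in the levels of the 10 enzymes was not tested.

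The cytosolic and mitochondrial branches were then set against each other within each library. Summed over its 2 genes, the cytosolic branch of the liver was at 157, 141 and 144 FPKM in Ctrl and at 114, 86.1 and 84 FPKM in LKO, without overlap. Summed without Shmt2, the 4 other mitochondrial genes were 1.82, 1.78 and 1.89 FPKM in Ctrl and 7.59, 12.2 and 16.9 FPKM in LKO, also without overlap. Shmt2 made up most of the mitochondrial sum, and with it the mitochondrial to cytosolic ratio was 0.645, 0.576 and 0.631 in Ctrl and 0.632, 1.10 and 1.18 in LKO, so that LKO 1 lay within the Ctrl range.

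In all, 5 ratios were compared in 4 tissues by 20 exact two-sided permutation tests, for which 0.1 is the smallest p that 3 against 3 libraries allow. In liver, Mthfd2/Mthfd1 was 0.0159, 0.0188 and 0.0161 in Ctrl and 0.0748, 0.19 and 0.275 in LKO. Mthfd1l/Mthfd1 was 0.0034, 0.0021 and 0.0036 in Ctrl and 0.0374, 0.0412 and 0.0615 in LKO. Mthfd2/Mthfd2l went from 6.21, 3.82 and 3.24 to 8.01, 14.1 and 16.01. The ratio of Aldh1l2 to its cytosolic partner Aldh1l1, which fell by 0.72 on the log2 scale in the LKO livers, was at most 0.00019 in Ctrl and between 0.00083 and 0.0029 in LKO. In these 4 ratios every LKO liver was above every Ctrl liver, by 1.19 to 2.54 on the scale of log2 ratios of FPKM + 1, where the added 1 shrinks the ratios of low genes (exact permutation p = 0.1, adjusted p = 0.4 over 20 tests). Shmt2/Shmt1 overlapped, with 1.30, 1.06 and 1.24 in Ctrl and 1.19, 2.17 and 2.14 in LKO (exact permutation p = 0.3). Outside the liver, Shmt2/Shmt1 in GM was the one ratio whose groups did not overlap, at 3.05, 3.12 and 3.58 in Ctrl and 2.96, 2.78 and 2.98 in LKO (exact permutation p = 0.1, adjusted p = 0.4).

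**Figure D2:**
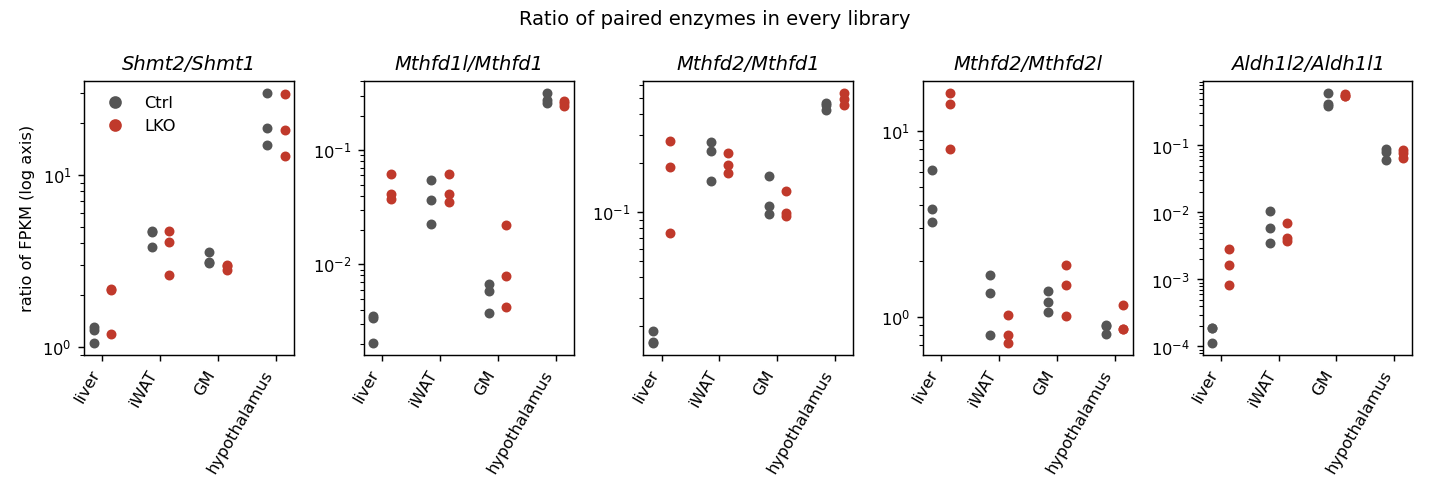
Ratio of FPKM (log axis) of 5 enzyme pairs in each of the 24 libraries, by tissue, grey for Ctrl and red for LKO. The LKO livers lie above the Ctrl livers in 4 of the 5 pairs, and the other tissues overlap except for Shmt2/Shmt1 in GM.

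In the Ctrl mice the 10 enzymes had opposite tissue patterns. Phgdh was highest in iWAT, at 128 ± 11.6 FPKM (SD, n = 3), then in hypothalamus at 51.2 ± 2.54, in GM at 2.81 ± 1.05 and in liver at 0.0924 ± 0.0571, and none of these neighbours overlapped. Psat1 was 51.8 ± 10.1 FPKM in iWAT and 46.3 ± 3.09 in hypothalamus, which overlapped, then 1.59 ± 0.56 in GM and 0.294 ± 0.0623 in liver. In the deposited TPM, which the authors scaled to a common sum in each library, Psat1 was 104, 90.0 and 131 in iWAT. In hypothalamus it was 127, 124 and 104 TPM, which overlapped too, with the order of the means reversed. Psph kept the order of Phgdh over a narrower range, from 14.7 ± 3.44 FPKM in iWAT to 3.63 ± 0.55 in liver. All 3 serine genes were thus lowest in liver.

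The 2 cytosolic genes and Shmt2 were highest in liver. Shmt1 was 74.4 ± 2.46 FPKM there, against 3.99 ± 0.18 in GM, 2.44 ± 0.37 in iWAT and 0.61 ± 0.14 in hypothalamus, all apart. Mthfd1 was 73.0 ± 7.41 FPKM in liver and between 14.2 and 15.5 FPKM in the other 3 tissues, whose neighbours overlapped. Shmt2 was 89.4 ± 10 FPKM in liver and between 10.6 and 12.9 FPKM elsewhere, again with overlap. Those overlaps depend on the measure. In the deposited TPM, Shmt2 was 28.9 to 33.1 in hypothalamus, 25.1 to 27.8 in GM and 20.9 to 22.8 in iWAT. Mthfd1 was 35.5 to 43.1 TPM in hypothalamus, 30.8 to 35.2 in iWAT and 26.1 to 30.2 in GM, so that both genes were apart between these tissues. The other mitochondrial genes were highest in hypothalamus, Mthfd1l at 4.22 ± 0.39, Mthfd2 at 6.74 ± 0.12 and Mthfd2l at 7.81 ± 0.44 FPKM. Aldh1l2 was 1.96 ± 0.39 FPKM there and 1.95 ± 0.27 FPKM in GM, which overlapped. Liver was lowest for Mthfd2, Mthfd2l and Aldh1l2, and GM for Mthfd1l.

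**Figure D3:**
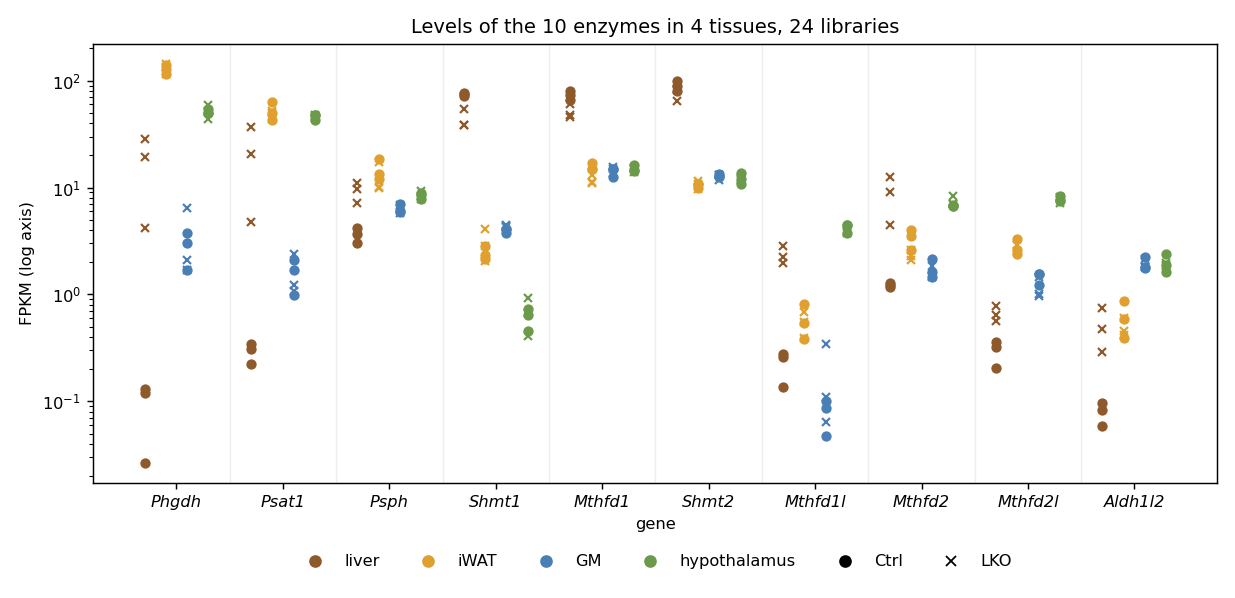
FPKM (log axis) of the 10 genes in all 24 libraries; colour gives the tissue, circles are Ctrl and crosses LKO. In Ctrl, Phgdh runs from 0.0924 FPKM in liver to 128 FPKM in iWAT (means), while Shmt1 is 74.4 FPKM in liver and 0.61 FPKM in hypothalamus.

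Set against these levels, the LKO liver reached 13.6% of the Ctrl iWAT level and 33.9% of the Ctrl hypothalamus level for Phgdh, where the Ctrl liver had 0.0721% and 0.18%. For Psat1 it reached 40.3% of Ctrl iWAT and 45.1% of Ctrl hypothalamus, but 24.6% and 27.5% without LKO 3. Mthfd2 in the LKO liver was 129.5% of the Ctrl hypothalamus level in the mean and 101.1% without LKO 3, and LKO 1, at 4.49 FPKM, lay below all Ctrl hypothalami. In the deposited TPM, Mthfd2 was 8.78, 17.9 and 24.8 in the LKO livers and 18.3, 17.2 and 16.2 in the Ctrl hypothalami. Its mean excess over hypothalamus was thus not seen in TPM, and percentages between tissues depend on the measure. Mthfd1l was 55.6% of the Ctrl hypothalamus level. Shmt1 in the LKO liver was still 1094% of the Ctrl GM level.

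Outside the liver no enzyme was called. The share of all genes called was 0% in iWAT and GM and 0.0217% in hypothalamus (limma, adjusted p under 0.05), and at an unadjusted p under 0.05 2 of the 8 enzymes tested passed in iWAT and 0 of 9 each in GM and in hypothalamus, where 15%, 6.83% and 3.72% of all tested genes passed. In iWAT Mthfd1 was 16.8, 14.9 and 14.7 FPKM in Ctrl and 13.2, 11.2 and 10.9 FPKM in LKO. All LKO libraries were below all Ctrl libraries, the difference was −0.37 on the log2 scale (SE 0.096), and it did not pass (unadjusted p = 0.0073, limma adjusted p = 0.17), although it did in the fit of all 24 libraries (adjusted p = 0.044). Mthfd2 in iWAT was 2.60, 4.03 and 3.51 FPKM in Ctrl and 2.31, 2.59 and 2.12 FPKM in LKO, with a difference of −0.38 (limma adjusted p = 0.28) and groups that only just did not overlap. In iWAT 20.8% of the tested genes had groups that did not overlap, 11% with LKO below. Ctrl 2, the iWAT library highest in Mthfd2, was also the highest in the summed markers of proliferating cells (18.6 FPKM, 3.56 and 5.46 FPKM in the other Ctrl libraries, 4.28 to 9.02 FPKM in LKO) and of monocytes and macrophages (1603 FPKM, 590.1 and 971 FPKM, 596 to 803 FPKM in LKO). Endothelial markers were higher in every LKO iWAT in their sum (95.6 to 109 FPKM in Ctrl, 151 to 201 FPKM in LKO) and in 3 of 5 genes, and adipocyte markers in their sum (20900 to 24570 FPKM, then 25730 to 27050 FPKM) and in 2 of 5, with 1 of 5 lower. So were neutrophil markers in their sum (3.69 to 5.07 FPKM, then 8.655 to 20.2 FPKM) and in 3 of 5. Hepatocyte markers were higher in their sum (15.9 to 27.3 FPKM, then 36.7 to 54.3 FPKM) and in 1 of 6. The part of these cell types in the Mthfd1 and Mthfd2 values was not tested.

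In GM Shmt1 (4.09, 4.09 and 3.78 against 4.43, 4.26 and 4.36 FPKM) and in hypothalamus Mthfd2 (6.87, 6.69 and 6.66 against 8.25, 6.95 and 6.96 FPKM) were the enzymes whose LKO libraries all lay above Ctrl, by 0.10 and 0.11 on the log2 scale. Groups without overlap made up 11.6% of the tested genes in GM, 4.38% with LKO above, and 9.7% in hypothalamus, 4.74% with LKO above. All 5 pituitary markers were also higher in every LKO hypothalamus, with sums of 7.45 to 53.7 FPKM in Ctrl and of 590.5, 173 and 131 FPKM in LKO 1, 2 and 3. LKO 1 was the highest library both in these and in Mthfd2, and their part in the Mthfd2 values was not tested. The highest Phgdh of GM, 6.46 FPKM in LKO 1 against 1.68 to 3.75 FPKM in Ctrl, was in the library with the highest summed adipocyte markers (685 FPKM, 234 to 526 FPKM in Ctrl) and lymph node markers (22.2 FPKM, up to 5.19 FPKM in Ctrl), whose part in it was not tested. Summed over 6 hepatocyte markers, GM held 255, 19.2 and 195 FPKM in Ctrl and 91.6, 11.3 and 32.2 FPKM in LKO. Their part in Shmt1 and in Shmt2/Shmt1 of GM was not tested. In hypothalamus that sum was 30.8 FPKM in Ctrl 3 and 4.055 to 7.55 FPKM in the other libraries.

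**Figure D4:**
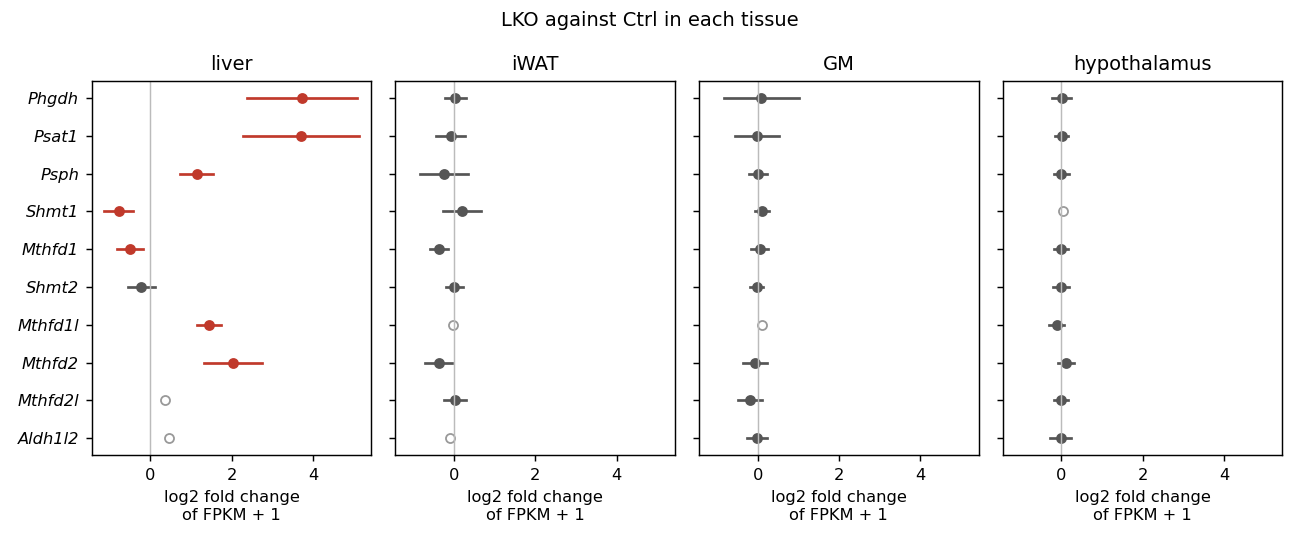
Difference between LKO and Ctrl as log2 fold change of FPKM + 1, with 95% intervals from limma, for the 10 genes in each tissue; red passed an adjusted p under 0.05, grey did not, and open circles are genes under the filter, without an interval. Calls are seen in liver alone, where Phgdh rose by 3.74 and Shmt1 fell by 0.78.

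Whether the difference between LKO and Ctrl varied with the tissue was tested in 1 limma fit of the 24 libraries. It did for 9 of the 10 enzymes, all but Shmt2 (adjusted p = 0.47), where 33.5% of 15849 genes were called. The adjusted p was 1.3e-06 for Mthfd1l, 2.5e-05 for Mthfd2, 1.0e-04 for Psat1, 2.3e-04 for Phgdh, 0.0016 for Psph and 0.0067 for Shmt1. Liver exceeded iWAT, GM and hypothalamus by 3.65 to 3.74 for Phgdh, 3.70 to 3.79 for Psat1, 1.14 to 1.39 for Psph, 1.33 to 1.56 for Mthfd1l and 1.92 to 2.41 for Mthfd2, all on the log2 scale. For Mthfd1 (adjusted p = 0.013) liver differed from GM by −0.56 and from hypothalamus by −0.50, but from iWAT by −0.14 (adjusted p = 0.52). Mthfd2l and Aldh1l2, at 0.032 and 0.031, were the 2 weakest of the 9, and both calls were lost with other processing, as was that of Shmt1.

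None of the other genes of these routes moved as far in liver as Phgdh and Psat1. Of 58 genes in 9 lists 56 were tested, of which 20 were called higher and 9 lower in liver, and after rescaling 9 and 14. That is 35.7% higher and 16.1% lower, beside 38.3% and 5.49% of all tested genes, and after rescaling 16.1% and 25%, beside 15.2% and 17.9%. Of the 29 calls, 8 held both after rescaling and with each library left out in turn, among them Slc1a4, Slc1a5, Atf5, Chdh, Pipox, Ftcd and Ahcy. The transporters of serine, glycine and other neutral amino acids had 4 of 6 genes higher and none lower, where 38.3% of all tested genes were higher. Slc1a4, which carries serine and alanine, rose by 1.23 (limma adjusted p = 0.0051), Slc1a5, the glutamine transporter ASCT2, by 1.16 (0.0033) and Sfxn3, a mitochondrial serine carrier, by 0.55 (0.011). Sfxn3 was under 1 FPKM in all 3 Ctrl livers and passed the filter through the LKO libraries alone, so that it could not have passed without a difference. In the fit without a filter its adjusted p was 0.016. Its call was lost without Ctrl 2 or LKO 2 (adjusted p = 0.050 and 0.051). The fourth, Sfxn1, was at 0.43, and at −0.0021 after rescaling. Of 6 transcription factors known at these genes, 4 were higher, against the same 38.3%. Ddit3 rose by 3.05 (limma adjusted p = 0.019), Myc by 2.86 (0.013) and Atf5, a relative of ATF4, by 1.18 (0.0019), followed by Nfe2l2. The Ddit3 call was lost without LKO 2 or any one Ctrl liver (adjusted p of 0.058 to 0.064), that of Myc without LKO 2 (0.051), and that of Nfe2l2 after rescaling (0.060). Atf4 itself was 54.4, 58.8 and 51.8 FPKM in Ctrl and 53.3, 81.2 and 107 FPKM in LKO, which overlapped (adjusted p = 0.12), and Atf4 is known to be regulated largely through its translation.

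**Figure D5:**
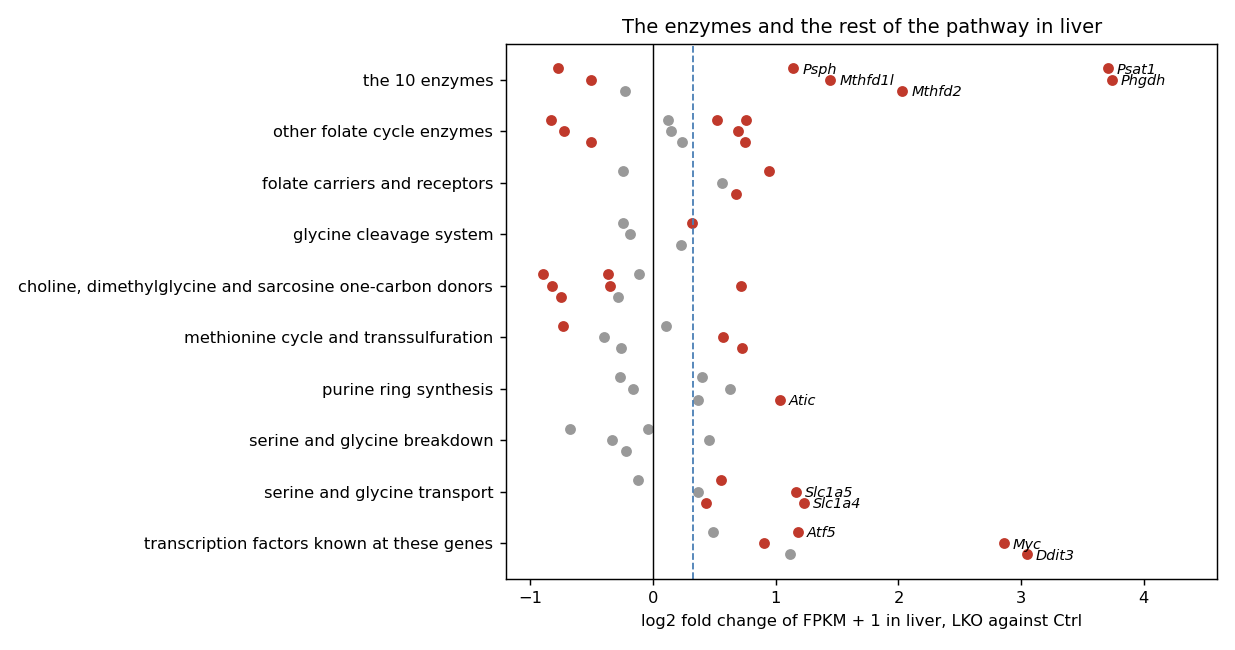
Log2 fold change of FPKM + 1 in liver, LKO against Ctrl, of tested genes of the 10 enzymes and of 9 lists of related genes; red passed an adjusted p under 0.05, named where the change was over 1, and the dashed line is the median of all genes tested, 0.33. The enzymes reach from −0.78 for Shmt1 to 3.74 for Phgdh, and the list labelled as one-carbon donors lies mostly left of 0.

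The genes that make or use choline, betaine, dimethylglycine and sarcosine were lower in 5 of 8 cases, where 5.49% of all tested genes were lower, or 17.9% after rescaling. Bhmt, which passes a methyl group of betaine to homocysteine, fell by 0.90 (limma adjusted p = 0.027), Gnmt, the glycine methyltransferase, by 0.82 (0.022) and Pipox, a sarcosine oxidase, by 0.75 (0.011), with Bhmt2 and Dmgdh behind them. All 5 were still called after rescaling, and Sardh then joined them (−0.72, adjusted p = 0.0095). With single libraries left out, the calls other than Pipox were lost, that of Bhmt without Ctrl 1, Ctrl 3 or LKO 3 and that of Gnmt without LKO 2 or any one Ctrl liver, at an adjusted p of up to 0.0982 and 0.0836. Chdh, the choline dehydrogenase, was the one that was higher. The median of the list was −0.36, against 0.33 over all genes tested. Of the other 11 folate cycle enzymes, 5 were higher and 3 lower, where 38.3% and 5.49% of all tested genes were. Among the higher ones was Mtrr (0.75, limma adjusted p = 0.041). The lower ones were Ftcd (−0.83, adjusted p = 0.0098), Aldh1l1 (−0.72, adjusted p = 0.010) and Fpgs. Mtrr, at 0.44, was no longer called after rescaling (adjusted p = 0.096), nor without any single library other than LKO 1, and Aldh1l1 was not called without Ctrl 3 (0.051). Of 4 folate carriers and receptors tested, 2 were higher, where 38.3% of all tested genes were, or 15.2% after rescaling. Folr2 rose by 0.94 (limma adjusted p = 0.028) and Slc25a32, which brings folate into mitochondria, by 0.67 (0.017). After rescaling Folr2 was at 0.53 (adjusted p = 0.0705) and Slc25a32 at 0.30 (0.045), and both calls were lost without LKO 2 or any one Ctrl liver (up to 0.0874 and 0.0694). Slc46a1, a proton-coupled folate transporter, was not called as deposited and was called lower after rescaling (−0.67, adjusted p = 0.0038). Folr2 is also expressed by resident macrophages, whose markers were higher in these livers, and their part in it was not tested.

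In the methionine cycle and transsulfuration Ahcy fell by 0.73 (limma adjusted p = 0.0043), and Mat2a and Mat2b rose by 0.72 and 0.57 (0.017 and 0.016), so that of 6 genes 2 were higher and 1 lower, where 38.3% and 5.49% of all tested genes were. After rescaling Mat2a and Mat2b were at 0.29 and 0.15 and were not called (adjusted p = 0.076 and 0.27). Both calls were also lost without Ctrl 2 or Ctrl 3, and that of Mat2a without LKO 2 (up to 0.0707 for Mat2a and 0.0721 for Mat2b). In purine ring synthesis, which uses formyl groups of folate, 1 of 6 genes was called, Atic, up by 1.03 (0.036). It was not called after rescaling, at 0.62 (adjusted p = 0.091), nor without any single library other than LKO 1 (0.058 to 0.112). Paics and Ppat were instead called lower after rescaling (−0.70 and −0.53, adjusted p = 0.0060 and 0.0081), so that the list went from 1 higher to 2 lower. In the glycine cleavage system 1 of 4 was called, Dld, at 0.32 and at −0.12 after rescaling, and of 5 tested genes of serine and glycine breakdown none was called, although Gcat was called lower after rescaling (−0.65, adjusted p = 0.043). In iWAT, GM and hypothalamus none of the 58 genes was called. The members of these counts that are given without a value were named after their values had been seen.

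The genes most like 4 of the enzymes across the 24 libraries were listed by Pearson r of log2(FPKM + 1) among 15849 genes. The libraries fall into tissue clusters, so that r mostly describes the tissue pattern and is given with no test. Closest to Phgdh were Ccm2, Pofut2 and Cdc42se1 (r of 0.983 to 0.987), and Psat1 came at place 13 with 0.972. Closest to Psat1 were Arhgdia, Stk24 and Mtmr2 (0.979 to 0.984). Mthfd2 was followed most closely by Haus8, Maoa and Ccdc120 (0.948 to 0.96), with Mthfd1l at place 30 and 0.906. Shmt2 was followed most closely by the liver genes Bhmt2, Leap2 and Gulo (0.995 to 0.996), with Mthfd1 at place 327 and 0.975.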

How the data were processed

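Total RNA of 24 libraries was sequenced by paired-end RNA-seq. The submitters' processing notes name FastQC 0.11.5, Trimmomatic 0.32, HISAT2 2.0.5, Bowtie2 2.2.6, STAR 2.5.2b and StringTie 1.3.3b and the mm10 build, with no order or role. The authors deposited FPKM per gene in 1 joined table, which every comparison used, and per-library tables with FPKM, TPM scaled by the authors to a common sum, and the mean read coverage of each gene, a signal that the authors did not scale for depth. Depth was read from the ratio of FPKM to coverage. These values are not counts and give no counting error per gene.

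For each tissue, limma 3.58.1 (lmFit, eBayes with trend, R 4.3.3) compared LKO with Ctrl on log2(FPKM + 1), which understates changes of low genes, for genes at 1 FPKM or more in at least 3 of 6 libraries. Genes with an adjusted p under 0.05 (Benjamini-Hochberg, over every gene tested) were called, with no fold limit. Differences between tissues were tested by a moderated F test in 1 fit of the 24 libraries, taken as independent. Ratios within libraries were compared by exact two-sided permutation tests (scipy 1.17.1). The scripts were tested on simulated data. The named genes are the 10 enzymes, up to 3 called genes with the largest change in liver from each list of related genes, Gadd45gip1, Aldh1l1, and the 3 genes most correlated with Phgdh, Psat1, Mthfd2 and Shmt2. The enzymes and lists were chosen with earlier results of these data known. Alternatives covered the pseudocount, the filter, TPM, scaling, the variance model, a replicate block and leaving out each library. Some genes that these rules name are not reported here.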

Additional observations from a re-analysis of the deposited data

Results flagged for a closer look

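For 9 of the 10 enzymes the difference between LKO and Ctrl was not the same in the 4 tissues, by the F test of the interaction in the limma fit of 24 libraries (33.5% of all tested genes passed). The adjusted p was 2.3e-04 for Phgdh, 1.0e-04 for Psat1 and 0.0016 for Psph among the serine genes, 0.0067 for Shmt1 and 0.013 for Mthfd1 in the cytosolic branch, and 1.3e-06 for Mthfd1l, 2.5e-05 for Mthfd2, 0.032 for Mthfd2l and 0.031 for Aldh1l2 in the mitochondrial branch. In each of them the liver had the difference of largest size, with LKO above Ctrl in 3 of 3 livers for the serine and mitochondrial genes and below in 3 of 3 for the cytosolic genes. For Mthfd1 the difference in iWAT had the same sign, and liver and iWAT were not told apart (liver minus iWAT −0.14, adjusted p = 0.52). No group here has more than 3 libraries, so that single outlying libraries were not looked for.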

How the results depend on the processing

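The number of the 10 enzymes called in liver lay between 5 and 9 over all settings, against 7 as reported, and between 6 and 7 with each library left out. Phgdh, Psat1, Psph, Shmt1, Mthfd1l and Mthfd2 kept their direction and their call in liver under every setting that tested them, the 5 FPKM filter leaving the last 2 untested. Mthfd1 also lost its call with ordinary variances (adjusted p = 0.074) and with a limit of 1.5-fold, and Shmt2 gained one with quantile normalization (−0.38, adjusted p = 0.036). The count of called iWAT enzymes went from 0 to 1 in the fit of all 24 libraries, through Mthfd1. Of the related genes, 29 were called in liver as reported and between 12 (without Ctrl 3) and 44 (without LKO 1) with a library left out. The counts without Ctrl 1, Ctrl 2 and LKO 2 were 15, 14 and 13. Over all genes, the liver calls numbered 4794 as reported, 2319 with ordinary variances and 1915 to 7552 with a library left out. The call of a difference between tissues was lost for Shmt1 with a pseudocount of 0.1 (adjusted p = 0.057), and, at the largest adjusted p of several such settings, for Mthfd2l after median-ratio scaling (0.17) and for Aldh1l2 without LKO 3 (0.13), while Shmt2 gained it after scaling (5.7e-04). With a pseudocount of 0.1 the log2 ratio difference in liver was 3.45 for Mthfd1l/Mthfd1 and 2.40 for Aldh1l2/Aldh1l1, against 1.95 and 1.19.

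Replicate numbers are shared between the genotypes, but no source ties them to a pairing: same-numbered livers correlated in their deviations from the group means by 0.15, 0.028 and 0.036. With the replicate number as a block, 7 of the 10 enzymes were called in liver, the same 7, and 26 of the related genes, while 7 in place of 9 enzymes differed between tissues, without Mthfd2l and Aldh1l2.

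Outside the liver, where no enzyme was called, small differences changed sign in at least 1 of the fits that left out a single library. Their range over those fits on the log2 scale was, in iWAT Phgdh (−0.035 to 0.12), Psat1 (−0.21 to 0.062), Shmt1 (−0.0025 to 0.37), Shmt2 (−0.038 to 0.071) and Mthfd2l (−0.052 to 0.11), in GM Phgdh (−0.36 to 0.37), Psat1 (−0.24 to 0.12), Psph (−0.052 to 0.068), Mthfd1 (−0.024 to 0.10), Shmt2 (−0.053 to 0.015), Mthfd2 (−0.14 to 0.031) and Aldh1l2 (−0.080 to 0.053), and in hypothalamus Phgdh (−0.092 to 0.11), Psat1 (−0.046 to 0.039), Psph (−0.060 to 0.045), Mthfd1 (−0.046 to 0.043), Shmt2 (−0.083 to 0.067), Mthfd2l (−0.032 to 0.048) and Aldh1l2 (−0.11 to 0.078). Mthfd2l in iWAT was −0.0049 after quantile normalization. In hypothalamus Psph, −0.0015 as reported, was 0.020 in TPM, 0.0021 after median-ratio scaling with or without the filter and 0.013 after quantile normalization, Mthfd1 was 0.012 and Shmt2 0.011 in TPM, and Mthfd2l was 0.018 in TPM and 0.0049 after quantile normalization. The fits without a filter combined with another scaling or pseudocount were chosen after seeing the data. With 3 libraries per group and no counts, differences of low genes such as Mthfd2l and Aldh1l2 in liver rest on values under 1 FPKM, and their counting error is unknown. In the other cases the cause was not tested.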
